A study of Mus musculus with 56 samples.

Results

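Collagens are the triple-helical proteins of the extracellular matrix, and each chain of a helix has its own gene, named Col, a type number and a chain number. All 42 genes with such a symbol in the array's annotation were taken, out of 18193 genes with a probe set of 1 symbol. Of these, 32 lay above the filter on dim probe sets and were tested among 12351 genes. The other 10 (Col2a1, Col11a2, Col4a6, Col6a4, Col6a5, Col9a2, Col9a3, Col10a1, Col17a1 and Col26a1) had mean levels under the filter and are not described further. The 42 genes fell into 11 fibrillar genes (9 tested), 6 of type IV (5 tested), 5 of type VI (3 tested), 9 fibril-associated genes (7 tested), 2 multiplexins (both tested), 3 network-forming genes (2 tested), 4 transmembrane genes (3 tested) and 2 others (1 tested).

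In skeletal muscle, fibrils of types I and III run through the connective tissue around fibres and bundles and into the tendon. Types IV and VI lie at the surface of each fibre and around capillaries, where type IV forms the network of the basement membrane and type VI forms beaded filaments beside it. Fibril-associated collagens coat the fibrils, multiplexins link basement membrane to the matrix around it, and chains are hydroxylated and folded with the chaperone Serpinh1 before export. In muscle most of these genes are known to be expressed by fibroblasts and fibro-adipogenic progenitors, and type IV also by endothelial cells.

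Female C57BL/6 mice gave the RNA, which was taken from the gastrocnemius, a muscle of the calf. The study compared nose-only exposure to 4% mainstream cigarette smoke with sham exposure to air, each given 2 hours a day on 5 days a week. The groups comprised mice left untreated at week 0, sham air for 2, 12 or 24 weeks and smoke for 2, 12 or 24 weeks. There were also 2 cessation arms, FA and RA, whose labels give 12 weeks of smoke and then 12 weeks of FA or RA. Each group had 6 mice, except 12 weeks of smoke, which had 8 arrays from 7 mice because a mouse named G8 was measured on 2 arrays that were averaged. The sources used here define neither FA nor RA. Sham groups carry FA in their labels as well, none carries RA, and ages are not given, so time on air and age cannot be told apart. Levels are log2 of the deposited intensity plus 16, a level is given with its SD over mice and a difference with its SE, and adjusted p values are Benjamini-Hochberg values from limma over the 12351 genes, with 0.05 as the threshold. A difference of 1 on this scale is close to 2-fold for bright probe sets and more than that for dim ones. Levels of different genes were not set against each other, since probe sets differ in brightness.

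Median intensities lay between 62.5 and 77.5 over the arrays, whose number limits the precision. The mean of 9 muscle fibre genes was between 13.53 and 13.57 in every group. In 12 of the 56 arrays lymphocyte genes stood far above the rest: the mean of the 9 measurable of 14 lymphocyte markers was 8.52 to 11.56 there and 4.76 to 6.45 in the other 44. These arrays came from 1 mouse each of the untreated, 2-week air, 24-week air and FA groups, 2 of the 12-week smoke group, and 3 each of the 24-week smoke and RA groups. Across arrays with and without lymphocyte genes, 15 of 32 collagen genes had a higher mean in the former and 17 a lower one, with a median difference of -0.022. Col15a1 was 9.44 ± 0.47 against 8.79 ± 0.29 and Col4a2 was 11.55 ± 0.24 against 11.02 ± 0.22, while Col11a1 was 6.09 ± 0.68 against 6.96 ± 0.53 and Col9a1 was 6.95 ± 0.85 against 7.82 ± 0.53. Col1a1 was 12.18 ± 0.31 against 12.28 ± 0.24. Within mouse G8, which had an array of each kind, Col5a3 was 9.06 with lymphocyte genes and 7.59 without, Col4a1 was 11.37 and 10.63, and Col1a1 was 12.44 and 12.50. For the collagen genes, results are therefore given with all mice and with the 44 mice measured without lymphocyte genes.

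Of all 17 comparisons, 4 called a collagen gene: 24 weeks of air against 2 and against 12 weeks, RA against 24 weeks of smoke, and 24 against 2 weeks of smoke. Col1a1 fell in 24-week air mice by 0.60 ± 0.10 against 12 weeks and by 0.56 ± 0.10 against 2 weeks. Col4a1 and Col5a3 rose in RA mice against 24 weeks of smoke, by 0.53 ± 0.14 and 0.76 ± 0.21, and 4 genes changed between 2 and 24 weeks of smoke. None of the 32 passed when smoke was compared with air of the same length.

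**Figure D1:**
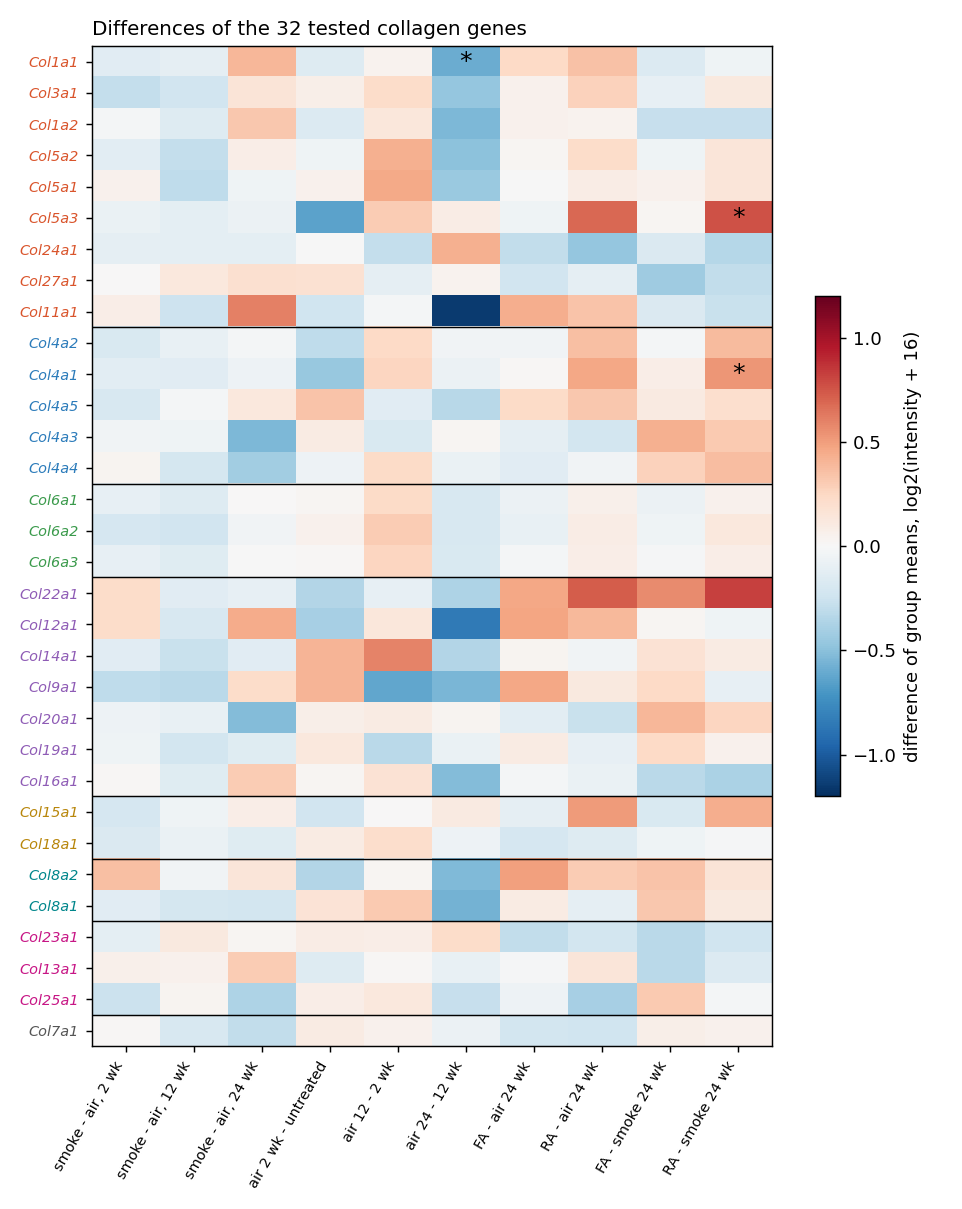
Differences of group means on the log2 scale for the 32 tested collagen genes (rows, grouped by class and coloured by class) in 10 comparisons (columns), with red for higher and blue for lower and a star where limma's adjusted p was under 0.05. The 3 stars lie at Col1a1 in 24 against 12 weeks of air and at Col4a1 and Col5a3 in RA against 24 weeks of smoke.

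Type I collagen is the main fibril protein of tendon and connective tissue, a helix of 2 Col1a1 chains and 1 Col1a2 chain. Col1a1 had its lowest level in the 24-week air group. Its lowest, median and highest levels were 12.30, 12.59 and 12.66 in untreated mice, 12.19, 12.42 and 12.57 after 2 weeks of air and 12.25, 12.36 and 12.75 after 12 weeks of air. After 24 weeks of air they were 11.36, 12.03 and 12.11. All 6 mice of 24-week air lay below every mouse of 12-week air and below every mouse of 2-week air, so these groups did not overlap. The share of all genes without overlap was not counted for this or any other comparison. Group means were 12.43 ± 0.19 at 12 weeks and 11.84 ± 0.36 at 24 weeks, a fall of 0.60 ± 0.10 (n = 6 and 6, limma adjusted p = 0.00375, exact permutation p = 0.0022, two-sided, the smallest that 6 against 6 mice allow). Of the 32 collagen genes, 1 fell and none rose, where 0.0324% of all genes were called, namely 3 that rose and Col1a1 itself. Against 2 weeks of air, with a mean of 12.39 ± 0.15, the fall was 0.56 ± 0.10 (adjusted p = 0.0068), again 1 of 32 genes where 0.219% of all genes were called. As the arrays measured whole muscle, fewer cells of a type and less RNA per cell cannot be told apart.

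The 24-week air mice were spread more widely than those of any other group for Col1a1, with an SD of 0.36 against 0.10 to 0.19 elsewhere. Replicates 1 and 6 stood at 11.39 and 11.36 and the other 4 between 12.01 and 12.11. Replicate 6 carried lymphocyte genes and replicate 1 did not. The model takes the spread as equal in all groups, and when the model held nothing but the 2 groups compared, the adjusted p was 0.269 against 12 weeks and 0.146 against 2 weeks. Without the lymphocyte arrays Col1a1 was lower by 0.50 (adjusted p = 0.0396) and 0.49 (adjusted p = 0.0104). A further probe set of Col1a1 gave differences of -0.90 and -0.66.

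The mean of tendon and cartilage markers was also lowest in 24-week air, while the median was not. Over the 9 measurable of 10 genes (Tnmd, Scx, Mkx, Comp, Chad, Cilp, Cilp2, Prg4 and Matn3; Acan was under the filter), the mean level was 8.94 ± 0.24 in untreated mice, 8.71 ± 0.45 after 12 weeks of air and 8.06 ± 0.87 after 24 weeks, with a range of 6.58 to 9.02 in the last group. The other groups at 24 weeks had means of 8.34 ± 0.63 (smoke), 8.44 ± 0.42 (FA) and 8.26 ± 0.46 (RA). The median was 8.34 in 24-week air, 8.33 in FA and 8.34 in RA. The 8 measurable of 10 fibroblast and progenitor markers had means of 10.93 ± 0.14 and 10.81 ± 0.22 at 12 and 24 weeks of air. The part of tendon tissue in the Col1a1 result was not tested.

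Col1a2, the partner chain, was 12.12 ± 0.24 after 12 weeks of air and 11.58 ± 0.36 after 24 weeks, with 3 of the 6 later mice below all the earlier ones. The difference of -0.54 ± 0.12 had an adjusted p of 0.101, and against 2 weeks it was -0.40 ± 0.12 (adjusted p = 0.215). Leaving out replicate 4 of 12-week air, replicate 2 of 24-week air or replicate 4 of 24-week air brought the difference against 12 weeks past the threshold (-0.62, -0.61 and -0.61, adjusted p 0.0203, 0.0407 and 0.0382). Both other probe sets of Col1a2 gave differences below 0 against 12 weeks, of -1.10 and -0.47. The promoter of Col1a2 is shown because it is the type I gene with an entry in the RefSeq promoter table (GRCm38.p6), which holds 250 bases before and 50 after the start. It lies on the plus strand at chr6:4505368-4505667, and capitals mark the motif CCAAT and its reverse complement ATTGG.
Col1a2: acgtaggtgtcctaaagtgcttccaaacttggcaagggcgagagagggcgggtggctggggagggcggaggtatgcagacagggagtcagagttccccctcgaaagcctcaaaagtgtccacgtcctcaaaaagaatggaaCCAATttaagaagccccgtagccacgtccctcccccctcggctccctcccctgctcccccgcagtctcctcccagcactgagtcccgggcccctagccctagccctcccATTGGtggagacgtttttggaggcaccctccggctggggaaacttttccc

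**Figure D2:**
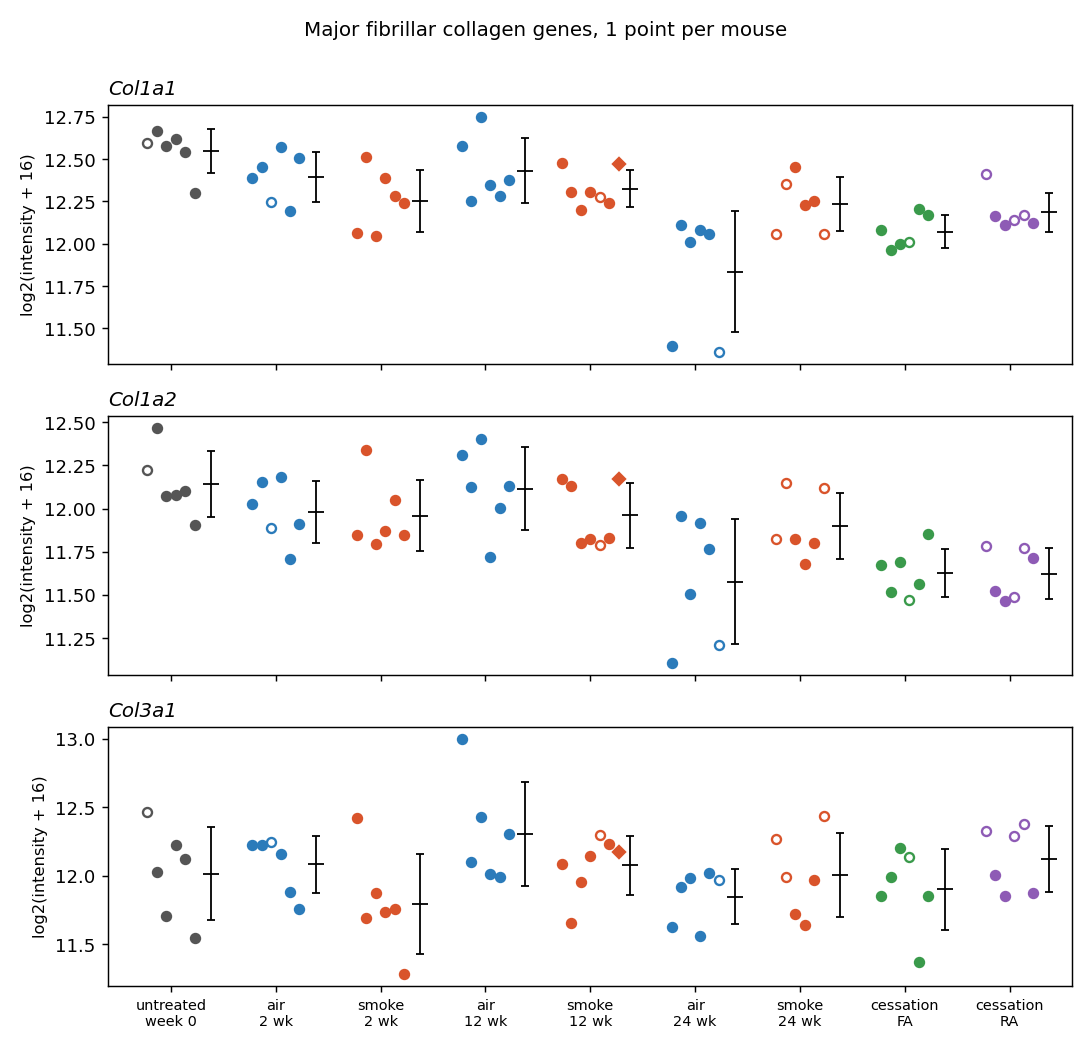
Levels of Col1a1, Col1a2 and Col3a1 (log2 of intensity plus 16) in each of the 55 mice, by group, with group mean and SD as black bars, open circles for arrays with lymphocyte genes and a diamond for mouse G8. All 6 Col1a1 points of 24 weeks of air lie below the 12 points of 2 and 12 weeks of air.

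The other fibrillar genes had differences below 0 in 24 against 12 weeks of air in most cases. Of the 9 tested, 6 lay below 0 and the median was -0.46, beside a median of 0.0178 over all genes. Col3a1, which forms fine fibrils of type III alone, was 12.31 ± 0.38 and 11.85 ± 0.20 (difference -0.46 ± 0.17, adjusted p = 0.435). Col5a1 and Col5a2, chains of type V that start fibrils and set their width, differed by -0.45 ± 0.12 (adjusted p = 0.264) and -0.49 ± 0.18 (adjusted p = 0.462). Their 12-week group held a mouse, replicate 1, at 9.89 for Col5a1 and 10.96 for Col5a2, above the other 5 in both. Between 2 and 12 weeks of air Col5a1 went from 8.75 ± 0.16 to 9.21 ± 0.35, with 5 of 6 mice above all earlier ones (difference 0.46 ± 0.12, adjusted p = 0.207).

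Col11a1, the type XI chain found in the core of thin fibrils and abundant in cartilage, had the largest difference of the class. Its levels after 24 weeks of air were 4.47, 6.25 and 6.69 (lowest, median, highest), against 6.61, 7.18 and 7.60 after 2 weeks and 6.22, 7.15 and 7.94 after 12 weeks. The later group overlapped both earlier ones, and 5 of its 6 mice lay below all 2-week mice. Differences were -1.17 ± 0.30 against 2 weeks (adjusted p = 0.0767) and -1.15 ± 0.30 against 12 weeks (adjusted p = 0.264). The other probe set of this gene gave -0.96 and -0.87.

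Fibril-associated collagens sit on the surface of fibrils and tie them to other matrix. Col9a1, of type IX and best known from cartilage, was 8.32 ± 0.31 after 2 weeks of air and 7.15 ± 0.57 after 24 weeks (difference -1.17 ± 0.37, adjusted p = 0.216), with 5 of 6 later mice below all earlier ones. Col12a1, of type XII and common in tendon and muscle sheaths, was 8.37 ± 0.34 after 12 weeks and 7.52 ± 0.78 after 24 weeks (difference -0.85 ± 0.28, adjusted p = 0.349). Replicate 6 of 24-week air, a lymphocyte array, was the lowest of its group for Col9a1, Col11a1 and Col12a1, at 6.47, 4.47 and 6.22. When the lymphocyte arrays were left out, 4 of 32 collagen genes fell between 2 and 24 weeks of air, where 2.71% of all genes were called: Col1a1, Col9a1 by 1.07 (adjusted p = 0.0366), Col11a1 by 0.98 (adjusted p = 0.0237) and Col19a1 by 0.51 (adjusted p = 0.0237). Leaving out replicate 6 of 24-week smoke, which is in neither group but adds to the pooled spread, also brought Col11a1 past the threshold (adjusted p = 0.026).

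**Figure D3:**
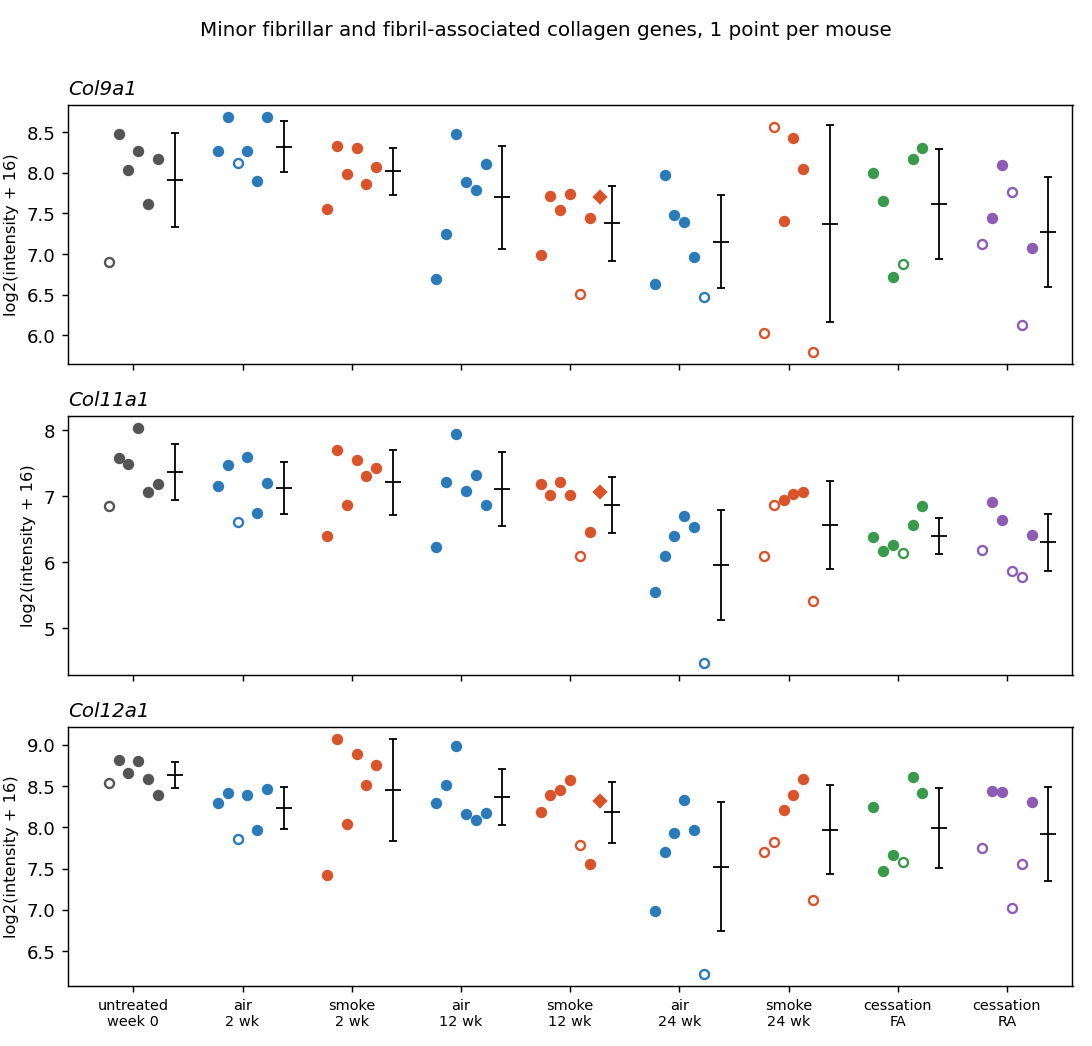
Levels of Col9a1, Col11a1 and Col12a1 (log2 of intensity plus 16) in each mouse, by group, with mean and SD as black bars and open circles for arrays with lymphocyte genes. The 24-week air group has the lowest mean of the 9 groups for all 3 genes, with Col11a1 at 5.96, and its open circle is its lowest point in each panel.

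Over all 32 genes, 24 against 12 weeks of air gave 7 differences above 0 and a median of -0.191, 24 against 2 weeks gave 14 above 0 and a median of -0.064, and 12 against 2 weeks gave 24 above 0 and a median of 0.132. In the last comparison no collagen gene passed, 3 had an unadjusted p under 0.05, and 0.0081% of all genes were called. The largest differences there were -0.62 ± 0.37 for Col9a1, 0.59 ± 0.21 for Col14a1 (fibril-associated, type XIV, adjusted p = 0.46) and 0.46 for Col5a1. These comparisons share mice, so their values are not separate evidence.

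The first 2 weeks of sham air were set against untreated mice. No collagen gene passed and 3 had an unadjusted p under 0.05, all lower after air, where 0.518% of all genes were called. Col5a3, another type V chain, had its lowest, median and highest levels at 8.36, 8.68 and 8.85 in untreated mice and 7.74, 7.95 and 8.32 after 2 weeks of air. No air mouse reached the untreated range, and the difference was -0.65 ± 0.21 (adjusted p = 0.233, exact permutation p = 0.0022). The SE is pooled over all groups, whose SDs for this gene ran from 0.17 to 0.71. Without the lymphocyte arrays it was -0.67 (adjusted p = 0.0205), and this was the only 1 of 32 collagen genes called there, where 1.91% of all genes were called. Col4a1 and Col9a1 differed by -0.46 ± 0.14 (adjusted p = 0.169) and 0.41 ± 0.37 (adjusted p = 0.972).

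Smoke was compared with air of the same length to ask whether exposure altered these genes. After 2 weeks none of 32 passed and none had an unadjusted p under 0.05, where 0% of all genes were called and 255 of 12351 had an unadjusted p under 0.05. The largest differences were 0.36 ± 0.35 for Col8a2, -0.30 ± 0.37 for Col9a1 and -0.29 ± 0.17 for Col3a1. Of the 32 genes 10 lay above 0, with a median of -0.0954 beside -0.019 over all genes. After 12 weeks 4 of 32 lay above 0, and the median was -0.143 beside -0.00709 over all genes. None passed, 1 had an unadjusted p under 0.05, and 0.0081% of all genes were called. That gene was Col5a1, at 9.21 ± 0.35 in air and 8.90 ± 0.16 in smoke (n = 6 and 7; difference -0.31 ± 0.12, adjusted p = 0.999). Col9a1 and Col5a2 differed by -0.32 ± 0.35 and -0.29 ± 0.17. With all mice, all 5 type IV, 3 type VI and 7 fibril-associated genes lay below 0 and all 3 transmembrane genes lay above. Without the lymphocyte arrays 1 of 5 type IV and 1 of 3 transmembrane genes lay above 0. The type VI and fibril-associated genes all stayed below 0 there.

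After 24 weeks the fibrillar genes lay on the other side. Col1a1 was 11.84 ± 0.36 in air and 12.23 ± 0.16 in smoke, where the lowest, median and highest mice were at 12.06, 12.24 and 12.45. Of the 6 smoke mice, 4 lay above every air mouse. The difference of 0.40 ± 0.10 had an adjusted p of 0.0553, and no collagen gene passed, where 0.47% of all genes were called. Unadjusted p values under 0.05 were found for 4 collagen genes higher and 3 lower with smoke. Col1a2 differed by 0.32 ± 0.12 (adjusted p = 0.115), Col3a1 by 0.16 ± 0.17 and Col11a1 by 0.61 ± 0.30 (adjusted p = 0.194). Col11a1 was at 0.31 without replicate 6 of 24-week air and at 0.75 without all lymphocyte arrays, where Col1a1, Col1a2 and Col3a1 were at 0.38, 0.12 and -0.05. Of the 9 fibrillar genes 6 lay above 0 with all mice, with a median of 0.157 beside -0.0259 over all genes. Between 2 and 24 weeks of smoke Col1a1 differed by -0.02 ± 0.10, and the 24-week air group held the lowest 2 Col1a1 values of all 55 mice.

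Type IV chains lay below 0 in 4 of 5 cases at 24 weeks. Col4a3 and Col4a4, which with Col4a5 form a second type IV network, differed by -0.54 ± 0.14 (adjusted p = 0.0569) and -0.41 ± 0.14 (adjusted p = 0.083). The Col4a3 level was 6.41, 6.82 and 6.93 in air and 5.25, 6.34 and 6.69 in smoke, so the groups overlapped. The 3 smoke mice with lymphocyte genes were those at 6.24, 6.15 and 5.25, and without the lymphocyte arrays the difference was -0.25 (adjusted p = 0.179). Col20a1, whose probe set shares sequence with other transcripts, differed by -0.52 ± 0.18 (adjusted p = 0.0959). Both other Col20a1 probe sets above the filter gave -0.05 and -0.12, and without the lymphocyte arrays the difference was -0.21. Several of these values lie close to the threshold, and leaving out 1 mouse moved them across it. Col4a3 passed without air replicate 3 or 6 or smoke replicate 1, 2, 3, 4 or 5 (adjusted p 0.0188 to 0.0485). Col1a1 passed without air replicate 2 or 3 or smoke replicate 1, 2, 3 or 4 (adjusted p 0.0223 to 0.0484). Col4a4 passed without smoke replicate 2, and Col20a1 without smoke replicate 4 (adjusted p = 0.0381).

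Whether the effect of smoke itself changed with time was tested as the difference at 24 weeks minus that at 2 weeks. None of 32 genes passed, where 0.0324% of all genes were called, and 1 gene had an unadjusted p under 0.05 with a value above 0 and 2 with a value below 0. Col1a1 had the largest value, 0.54 ± 0.15 (adjusted p = 0.142), followed by Col11a1 at 0.53 ± 0.42 and Col9a1 at 0.52 ± 0.52. Averaged over the 3 times, smoke minus air was 0.05 ± 0.06 for Col1a1, 0.05 ± 0.07 for Col1a2 and -0.12 ± 0.09 for Col3a1. The largest averages were -0.22 ± 0.10 for Col20a1, -0.21 ± 0.08 for Col4a3 and -0.20 ± 0.14 for Col25a1, a transmembrane collagen. None passed, where 0.0324% of all genes were called, and 3 had an unadjusted p under 0.05, all lower with smoke.

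No type VI gene passed with smoke at any of the 3 times. Col6a1, Col6a2 and Col6a3, whose chains build 1 filament and whose mutation causes muscle disease in humans, differed between smoke and air by -0.10 to -0.20 after 2 weeks, -0.15 to -0.23 after 12 weeks and -0.038 to 0.00285 after 24 weeks, with SEs of 0.12 to 0.18. The 12-week differences without the lymphocyte arrays were -0.28, -0.41 and -0.25 (adjusted p 0.547, 0.542 and 0.639). The multiplexins Col15a1, present around muscle fibres and capillaries, and Col18a1, the source of endostatin, had differences between -0.20 and 0.08 at the 3 times, and none passed. At 12 weeks they were -0.28 and -0.23 without the lymphocyte arrays (adjusted p 0.711 and 0.77).

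Time on smoke was followed as 12 and 24 weeks against 2 weeks. At 12 weeks none of 32 genes passed, 3 higher and 1 lower had an unadjusted p under 0.05, and 0.17% of all genes were called. Differences were -0.64 ± 0.35 for Col9a1, -0.49 ± 0.18 for Col19a1 and 0.47 ± 0.20 for Col14a1. At 24 weeks 28.2% of all genes were called, the group of 24-week smoke held 3 lymphocyte arrays and that of 2 weeks none. There 1 of 32 collagen genes rose and 3 fell, a smaller share than over all genes. Col4a3 fell by 0.65 ± 0.14 (adjusted p = 0.00262), Col22a1, found at the junction of muscle and tendon, by 0.78 ± 0.27 (adjusted p = 0.031) and Col19a1, another fibril-associated gene, by 0.50 ± 0.19 (adjusted p = 0.0409). Col23a1, a transmembrane collagen, rose by 0.45 ± 0.16 (adjusted p = 0.0318).

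Without the lymphocyte arrays none of these 4 passed, where 5.55% of all genes were called, and the differences were -0.30 for Col4a3 (adjusted p = 0.0781), -0.18 for Col22a1, -0.10 for Col19a1 and 0.43 for Col23a1. Replicate 6 of 24-week smoke, a lymphocyte array, was the lowest of its group for Col4a3 at 5.25 and for Col22a1 at 7.75. Without that mouse alone Col4a3 and Col5a3 passed and Col22a1 did not (-0.40, adjusted p = 0.207). Col22a1 also missed the threshold without 24-week replicate 1 or 2-week replicate 2, 3 or 5 (differences -0.66 to -0.76). Col19a1 missed it without 24-week replicate 1 or 6 or 2-week replicate 1, 3, 4 or 5 (differences -0.32 to -0.50). Col23a1 missed it without 24-week replicate 2, 3 or 6 or 2-week replicate 2 or 4 (differences 0.36 to 0.43).

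The cessation arms were compared with 24 weeks of smoke, 24 weeks of air, 12 weeks of smoke and each other. RA mice had the highest mean of the 9 groups for Col4a1, Col4a2, Col5a3 and Col15a1. Col4a1 and Col4a2 encode the chains that form the type IV network of nearly all basement membranes, and in the genome they lie head to head. The lowest, median and highest Col4a1 levels were 11.29, 11.40 and 11.64 in RA mice, 10.67, 10.996 and 11.16 in FA mice, 10.60, 10.80 and 11.41 after 24 weeks of smoke and 10.76, 10.88 and 11.34 after 24 weeks of air. All RA mice lay above all FA mice, and RA overlapped both 24-week smoke and 24-week air. Against 24 weeks of smoke the rise was 0.53 ± 0.14 (n = 6 and 6, adjusted p = 0.0265, exact permutation p = 0.00866), with 3 of 6 RA mice above every smoke mouse.

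Col5a3 levels were 8.59, 8.98 and 9.62 in RA mice, 8.10, 8.32 and 8.57 in FA mice and 6.998, 8.497 and 9.12 after 24 weeks of smoke. The lowest smoke mouse was replicate 6, and 2 of 6 RA mice lay above every smoke mouse. The rise against 24 weeks of smoke was 0.76 ± 0.21 (adjusted p = 0.0387). Thus 2 of 32 collagen genes rose and none fell, where 2.34% of all genes were called. Col22a1, Col15a1 and Col4a2 differed by 0.82 ± 0.27 (adjusted p = 0.101), 0.43 ± 0.22 (adjusted p = 0.317) and 0.38 ± 0.14 (adjusted p = 0.159). The Col22a1 probe set used shares sequence with other transcripts, and both other Col22a1 probe sets above the filter gave 0.77 and 0.12. Without replicate 6 of 24-week smoke Col22a1 differed by 0.43, and without the lymphocyte arrays by 0.27, while Col15a1 differed by 0.30 and 0.28. All 5 type IV genes lay above 0, with a median of 0.373 beside 0.00986 over all genes. That median was 0.202 without replicate 6, and without the lymphocyte arrays it was 0.179 with 4 of 5 above 0.

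**Figure D4:**
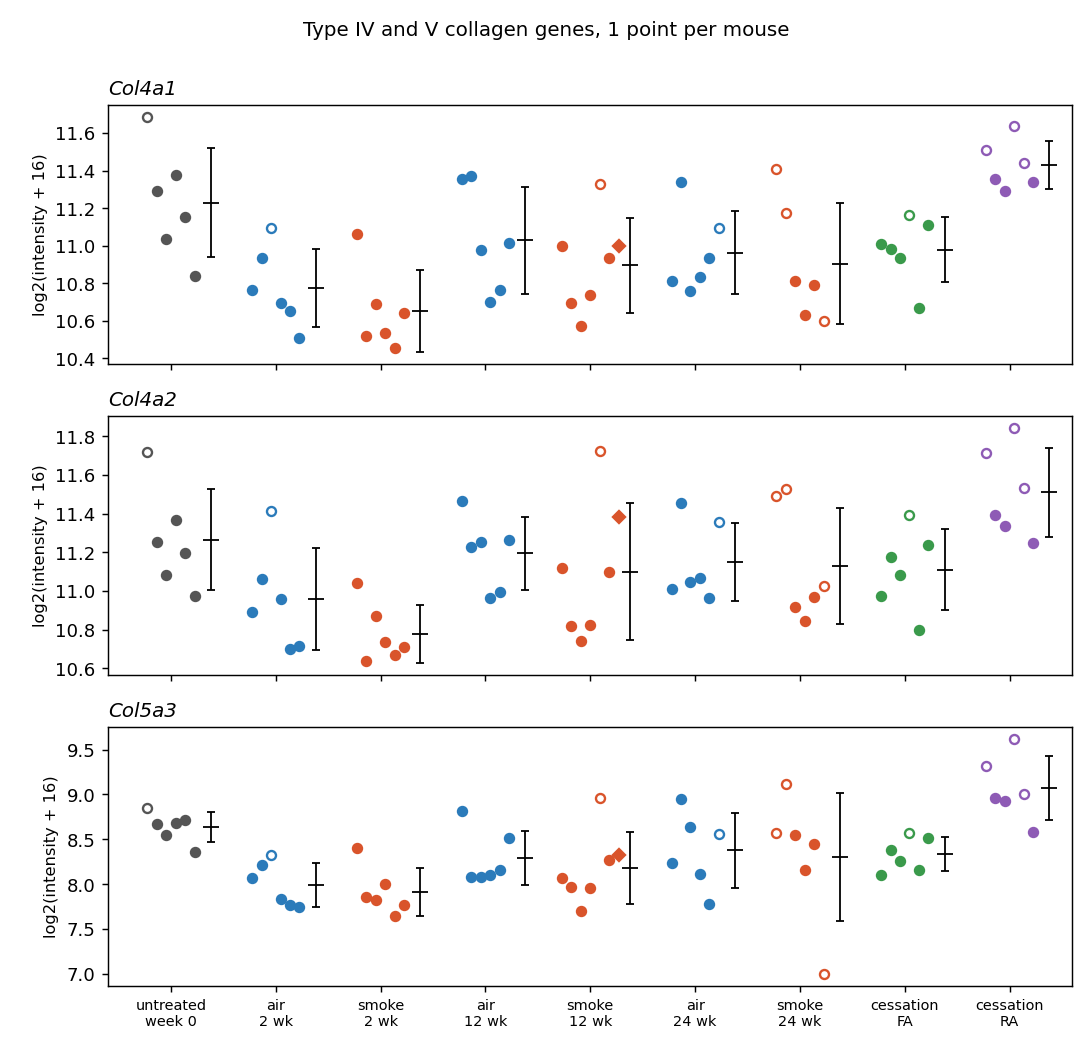
Levels of Col4a1, Col4a2 and Col5a3 (log2 of intensity plus 16) in each mouse, by group, with mean and SD as black bars, open circles for arrays with lymphocyte genes and a diamond for mouse G8. RA has the highest mean of the 9 groups in each panel, and its Col4a1 and Col5a3 points all lie above those of FA.

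Leaving out single mice ended both calls, and a model of RA and 24-week smoke alone gave adjusted p values of 0.379 for Col4a1 and 0.775 for Col5a3. RA and 24-week smoke held 3 lymphocyte arrays each. In RA these 3 were the 3 highest mice for both Col4a1 and Col5a3. Without replicate 6 of 24-week smoke Col4a1 differed by 0.46 (adjusted p = 0.0723) and Col5a3 by 0.50 (adjusted p = 0.172), and without RA replicate 4 Col4a1 differed by 0.48 (adjusted p = 0.0542). Col5a3 also missed the threshold without 24-week smoke replicate 4 or RA replicate 1, 2, 3, 4 or 5 (differences 0.65 to 0.79). Without the lymphocyte arrays, with 3 mice in each group, Col4a1 rose by 0.58 (adjusted p = 0.0372), Col5a3 differed by 0.44 (adjusted p = 0.247), and the fibrillar genes Col27a1 and Col24a1 fell by 0.65 (adjusted p = 0.00814) and 0.76 (adjusted p = 0.0496), where 3.28% of all genes were called. The other probe set of Col4a1 gave 0.21, and the mean of its probe sets 0.37 (adjusted p = 0.149).

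The mean of endothelial markers was also higher in RA than after 24 weeks of smoke, but the groups overlapped. The mean of the 10 markers was 9.37 ± 0.06 in RA, 9.35 ± 0.08 in FA, 9.33 ± 0.06 after 24 weeks of air and 9.08 ± 0.35 after 24 weeks of smoke, where it ran from 8.56 to 9.59. The RA range of 9.28 to 9.43 lay inside the smoke range. Against 24-week air, Tie1 fell by 0.46 in 24-week smoke and Flt1 by 0.56 in RA. Flt1 also differed by -0.50 in 24-week smoke (limma adjusted p = 0.0631). Of these 10 genes, 3 rose in RA against 24-week smoke, where 2.34% of all genes were called: Kdr by 0.62, Cdh5 by 0.47 and Tek by 0.41. RA mice above every smoke mouse numbered 1 for Kdr, 0 for Cdh5 and 3 for Tek. In FA against 24-week smoke all 10 lay above 0 with a median of 0.275. Between RA and FA none of the 10 passed and their median difference was 0.0142. Endothelial marker values are given with all mice only. The part of endothelial cells in the Col4a1 result was not tested.

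The promoters of Col4a1, Col4a2 and Col5a3 are printed because these genes carry the RA result and because the first pair shares a stretch of DNA. In the RefSeq table (GRCm38.p6) Col4a1 lies on the minus strand at chr8:11312777-11313076 and Col4a2 on the plus strand at chr8:11312555-11312854, so that the windows share 78 bases and their start sites are 21 bases apart. Col5a3 lies on the minus strand at chr9:20815018-20815317. Capitals mark CCAAT or ATTGG.
Col4a1: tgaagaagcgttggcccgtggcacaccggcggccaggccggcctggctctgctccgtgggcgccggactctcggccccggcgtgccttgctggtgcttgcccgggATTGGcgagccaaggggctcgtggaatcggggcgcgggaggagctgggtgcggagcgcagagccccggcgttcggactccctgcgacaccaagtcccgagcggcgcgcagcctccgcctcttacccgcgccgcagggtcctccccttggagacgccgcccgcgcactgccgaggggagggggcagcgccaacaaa
Col4a2: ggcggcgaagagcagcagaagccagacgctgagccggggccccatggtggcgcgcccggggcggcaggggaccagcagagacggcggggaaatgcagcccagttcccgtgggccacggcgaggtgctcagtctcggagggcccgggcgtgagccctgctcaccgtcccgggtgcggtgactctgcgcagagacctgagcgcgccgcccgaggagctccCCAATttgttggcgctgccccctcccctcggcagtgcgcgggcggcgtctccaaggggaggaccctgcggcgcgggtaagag
Col5a3: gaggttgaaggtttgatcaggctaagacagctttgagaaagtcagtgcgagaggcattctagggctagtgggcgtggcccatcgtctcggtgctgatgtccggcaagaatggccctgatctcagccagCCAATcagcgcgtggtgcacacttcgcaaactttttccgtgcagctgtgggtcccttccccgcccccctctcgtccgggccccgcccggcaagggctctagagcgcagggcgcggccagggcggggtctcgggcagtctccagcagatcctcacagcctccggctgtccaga

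The motif is 32 bases before the start in Col4a2, and each of these 3 windows holds it once. Promoter windows were found for 33 of the 42 genes, with 36 windows in all, and the genes without one include Col1a1 and Col4a3. CCAAT on either strand was in 13 of 36 windows (36.1%), beside 37.41% of 32851 RefSeq promoters. TATAAA was in 5 windows (13.9%, beside 13.62%) and GGGCGG in 22 (61.1%, beside 35.66%), with both strands searched and each motif counted separately as present or absent in a window. These are matches of letters and not sites shown to be bound.

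Against 24 weeks of air no collagen gene passed in RA mice, 6 had an unadjusted p under 0.05 and a value above 0 and 1 a value below 0, and 1.76% of all genes were called. Differences were 0.72 ± 0.27 for Col22a1 (adjusted p = 0.183), 0.69 ± 0.21 for Col5a3 (adjusted p = 0.0794), 0.51 ± 0.22 for Col15a1 (adjusted p = 0.251), 0.47 ± 0.14 for Col4a1 (adjusted p = 0.0661) and 0.35 ± 0.10 for Col1a1 (adjusted p = 0.0663). Both other Col22a1 probe sets above the filter gave 0.71 and 0.13. Calls here also turned on single mice. Leaving out replicate 6 of 24-week smoke, which enters only through the pooled spread, called Col1a1, Col4a1, Col22a1 and Col5a3 (adjusted p 0.0383, 0.0364, 0.0359 and 0.0151). Col1a1 also passed without air replicate 2, 3, 4 or 5, Col4a1 without air replicate 2 (adjusted p = 0.0384) and Col5a3 without RA replicate 6 (adjusted p = 0.0474). Without the lymphocyte arrays Col27a1 fell by 0.46 (adjusted p = 0.0371), where 3.97% of all genes were called, and Col4a1 differed by 0.39 (adjusted p = 0.108).

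Between RA and FA mice the largest differences were those of Col5a3, Col15a1, Col4a1 and Col4a2, but none of 32 passed, where 0.0243% of all genes were called, and 4 had an unadjusted p under 0.05, all higher in RA. Col5a3 differed by 0.74 ± 0.21 (adjusted p = 0.488), Col15a1 by 0.62 ± 0.22 (adjusted p = 0.89) and Col4a1 by 0.45 ± 0.14 (adjusted p = 0.694). For Col5a3 and Col4a1 all 6 RA mice lay above all 6 FA mice, with an exact permutation p of 0.0022 for each gene taken alone. How many of all genes separated in this way was not counted. RA held 3 lymphocyte arrays and FA 1. Over all arrays Col5a3 averaged 8.75 with lymphocyte genes and 8.23 without, and Col4a1 11.29 and 10.90. Without the lymphocyte arrays (5 FA and 3 RA mice) the differences between RA and FA were 0.54 for Col5a3, 0.33 for Col15a1 and 0.39 for Col4a1. Col1a1 and Col1a2 differed by 0.12 ± 0.10 and -0.004 ± 0.12.

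FA mice had no collagen gene past the threshold in any of 3 comparisons. Against 24 weeks of air, where 0.081% of all genes were called, 1 had an unadjusted p under 0.05: Col1a1, at 12.07 ± 0.10 in FA (difference 0.24 ± 0.10, adjusted p = 0.654). Larger differences were 0.49 ± 0.35 for Col8a2, a network-forming chain of type VIII, 0.47 ± 0.28 for Col12a1 and 0.47 ± 0.27 for Col22a1. Without replicate 6 of 24-week air, a lymphocyte array, Col8a2 was at 0.08, Col12a1 at 0.21 and Col22a1 at 0.31. Against 24 weeks of smoke, where 3.55% of all genes were called, 4 collagen genes higher and 5 lower had an unadjusted p under 0.05. Col22a1 differed by 0.57 ± 0.27 (adjusted p = 0.17), Col4a3 by 0.43 ± 0.14 (adjusted p = 0.0663) and Col27a1 by -0.42 ± 0.15 (adjusted p = 0.0784). Col22a1 was at -0.02 without the lymphocyte arrays. Col4a3 passed without smoke replicate 3, 4 or 5 (adjusted p 0.0249 to 0.0343), Col27a1 without smoke replicate 3 (adjusted p = 0.0354) and Col20a1 without smoke replicate 4.

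The 12 weeks after smoke ended were followed by setting FA against 12 weeks of smoke, where 0.34% of all genes were called and 4 collagen genes had an unadjusted p under 0.05, all lower in FA. Col1a1 was 12.32 ± 0.11 after 12 weeks of smoke (n = 7) and 12.07 ± 0.10 in FA (n = 6), with 5 of 6 FA mice below all 7 smoke mice (difference -0.25 ± 0.10, adjusted p = 0.532, exact permutation p = 0.00175). Col1a2 differed by -0.33 ± 0.12 (adjusted p = 0.385) and Col16a1, another fibril-associated gene, by -0.39 ± 0.14 (adjusted p = 0.425). Col11a1 and Col25a1 differed by -0.47 ± 0.29 and -0.37 ± 0.23.

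Chains that share a helix were compared across mice. Each mouse was taken as its deviation from its group mean, over the 44 mice without lymphocyte genes, for 10 pairs of genes with a permutation test of 100000 resamples. Col1a1 and Col1a2 had a Pearson r of 0.78 and a Spearman rho of 0.75, Col4a1 and Col4a2 an r of 0.88 and a rho of 0.84, and Col6a1 and Col6a2 an r of 0.97 and a rho of 0.96. For Col5a1 with Col5a2 and Col6a2 with Col6a3 the r was 0.86 and 0.85 and the rho 0.80 and 0.82. All 5 had a permutation p of 1e-05, the smallest that 100000 resamples can give, and 1.4e-05 after adjustment over the 10 pairs. Without the 2 mice farthest from the median the r values were 0.69, 0.85, 0.97, 0.78 and 0.81 in the order given.

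Col1a1 was also set against 3 chains of other helices, and no other such pair was run. All 3 pairs hold Col1a1, so whether other chains of different helices vary together was not tested. It had an r of 0.14 with Col3a1 (permutation p = 0.37, adjusted 0.41; rho 0.10), 0.11 with Col4a1 (p = 0.49; rho 0.08) and 0.20 with Col6a1 (p = 0.2, adjusted 0.25; rho 0.22). Without the 2 farthest mice these were 0.06, 0.09 and 0.20. Over all 55 mice Col1a1 and Col6a1 had a rho of 0.30 (adjusted permutation p = 0.033) and an r of 0.24 (adjusted permutation p = 0.096). Col1a1 with the chaperone Serpinh1 had an r of 0.66 and a rho of 0.60, and Col4a1 with Sparc, a matrix protein that binds collagen, 0.61 and 0.61 (adjusted permutation p of r 1.4e-05 for both). All values of a mouse come from 1 array, so shared array quality enters every pair.

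**Figure D5:**
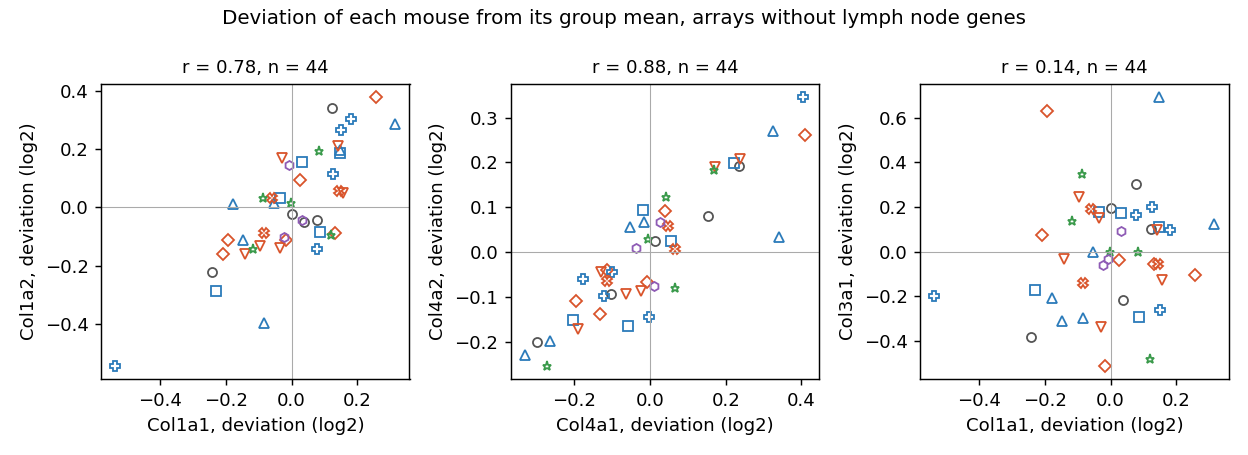
Deviation of each of 44 mice from its group mean (log2 scale) for Col1a2 against Col1a1, Col4a2 against Col4a1 and Col3a1 against Col1a1, with a colour and marker for each group. The points follow a rising line in the first panels (r of 0.78 and 0.88) and scatter without one in the last (r of 0.14).

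Genes that process, cross-link, bind or break down collagen were followed from lists, with all mice only. When Col1a1 fell between 12 and 24 weeks of air, none of 20 tested genes of processing in the cell, 8 of maturation outside the cell or 12 fibril partners passed. The maturation genes lay below 0 in 8 of 8 cases with a median of -0.213, and the fibril partners in 10 of 12 with a median of -0.276. Of all genes 55.7% lay above 0 in this comparison, with a median of 0.0178. Lox, which cross-links fibrils, differed by -0.66 ± 0.23 (adjusted p = 0.419), Serpinh1 by -0.20 ± 0.14 (adjusted p = 0.727) and Sparc by -0.17 ± 0.07 (adjusted p = 0.496). None of these 3 passed in any of the 17 comparisons.

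In RA mice Loxl1, a cross-linking enzyme of elastic fibres and collagen, was 9.41 ± 0.06 against 8.75 ± 0.42 after 24 weeks of smoke. All 6 RA mice lay above all smoke mice, and the rise of 0.65 ± 0.14 passed (limma adjusted p = 0.00422). Colgalt2, which adds galactose to collagen, rose as well (0.59 ± 0.15, limma adjusted p = 0.022). In that comparison 2.34% of all genes were called. Each of the 2 groups held 3 lymphocyte arrays, which were not left out for these genes. Timp3, an inhibitor of matrix proteases, was 11.19 ± 0.09 in RA and 11.61 ± 0.17 after 24 weeks of air, a fall of 0.42 ± 0.08 with all 6 RA mice below all air mice (adjusted p = 0.00242). It was the 1 of 11 breakdown genes called there, beside 1.76% of all genes. In FA against 24 weeks of smoke, where 3.55% of all genes were called, 2 of 20 processing genes rose, Colgalt2 by 0.67 (adjusted p = 0.0111) and Tmem38b, an ion channel needed for collagen export, by 0.34 (adjusted p = 0.0233).

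Between 2 and 24 weeks of smoke 3 of 20 processing genes rose and 3 fell, close to the share of 28.2% over all genes. The largest changes were 0.62 for Ppib, -0.57 for Colgalt2, -0.43 for P4ha1 and -0.34 for Tmem38b. Of 11 genes of TGF beta signalling, the pathway known to induce collagen, Ltbp2 rose by 1.89, Tgfbr2 rose by 0.51 and Tgfb2 fell by 0.42, again near that share. Single members of other lists also changed there: Adamts3, which trims procollagen, fell by 0.76, Mmp9 rose by 1.22, Lamb2, a laminin chain, fell by 0.31 and Bgn, a proteoglycan on fibrils, rose by 0.39. Of the cell type markers, Scx of tendon fell by 0.56, and of the endothelial genes Cdh5 fell by 0.39 and Cldn5 rose by 0.57. Of the 8 measurable fibroblast and progenitor markers Pdgfra and Dpt rose by 0.33 and 0.37, where 28.2% of all genes were called. The mean of these 8 was 10.62 ± 0.18 after 2 weeks of smoke and 10.77 ± 0.12 after 24 weeks. The lymphocyte genes Cd3d, Cd79a and Cd8a rose by 3.34, 2.60 and 2.23 and Cxcl13 of lymph node stroma by 3.26. None of 6 collagen receptor genes passed in any comparison. The part of the 3 lymphocyte arrays of 24-week smoke in these changes was not tested.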

How the data were processed

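RNA of 56 muscle samples from 55 separate mice had been hybridised to microarrays, and the authors deposited 1 intensity per probe set and array, on a linear scale. The summarisation and normalization that made these values are not given in the sources used here. All value columns were mapped to samples by their labels (0 left unmapped). Of 2522072 values, 5 lay below -15 and were set to it, and log2 of the intensity plus a pseudocount of 16 was used. Of 45037 probe sets, 34945 carried 1 gene symbol, 932 several and 9160 none. Each of 18193 genes was represented by its probe set with the highest mean, and the 12351 genes with a mean above the 40th percentile (5.71) were tested. Both arrays of mouse G8 were averaged.

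One limma model (limma 3.58.1 and data.table, version 1.17.8, in R 4.3.3) was fitted to all 9 groups (46 residual degrees of freedom) and gave the 17 comparisons, each with Benjamini-Hochberg adjustment over all genes tested. The exact permutation tests and the pairs were also run in R. Python 3.11.15 with numpy 2.4.6, pandas 2.3.3 and matplotlib 3.10.9 made the promoter counts, the search for mice that stood apart and the plots. The model was tested on simulated data. The text names every collagen gene past the threshold, the 3 of largest difference where none passed, and in any case the genes of types I, III, V (Col5a1 and Col5a2), VI, XV and XVIII with Col4a1 and Col4a2. Of other lists it names up to 4 members past the threshold, with Serpinh1, Sparc and Lox in any case. Other collagen genes were named after their values were seen. Members and lists were chosen with earlier results of these data known. Alternatives were other filters, pseudocounts, quantile normalization, the mean of probe sets, other moderation, array weights, leaving out G8, lymphocyte arrays or single mice, and fits of the compared groups alone. The number of arrays limits the precision, and depth in reads does not apply.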

Additional observations from a re-analysis of the deposited data

Results flagged for a closer look

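In groups of 6 or 7 mice, the highest or lowest mouse was set against the gap to its nearest neighbour (Dixon's test). Of 288 combinations of 32 genes and 9 groups, 19 (6.6%) held a mouse that stood apart, where chance gives about 1 in 20. Of these 19 flags 8 fell on lymphocyte arrays. Some mice were flagged for more than 1 gene, and 3 flags fell on replicate 6 of 24-week smoke.

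Among the fibrillar genes, Col1a1 stood apart at 12.30 in untreated replicate 6 and at 12.41 in RA replicate 1, a lymphocyte array. Replicate 1 of 12-week air stood apart for both Col5a1 (9.89) and Col5a2 (10.96), and replicate 1 of 2-week smoke for Col5a2 (9.83). Col4a3 was lowest in replicate 6 of 24-week air (6.41) and replicate 6 of 24-week smoke (5.25), both lymphocyte arrays. Col6a1 stood apart at 11.31 in replicate 2 of 24-week air and at 11.58 in replicate 2 of 24-week smoke, the latter a lymphocyte array. Replicate 6 of 24-week smoke, a lymphocyte array, also stood apart for Col8a2 (6.63) and Col4a5 (6.89). Col8a2 stood apart at 9.20 in untreated replicate 2 and Col14a1 at 7.54 in RA replicate 6. Col7a1 did so at 6.28 in untreated replicate 1 and 6.31 in FA replicate 4, both lymphocyte arrays, and at 7.47 in replicate 4 of 2-week air. The others were Col15a1 at 8.20 in FA replicate 5, Col18a1 at 6.80 in replicate 6 of 2-week air and Col20a1 at 7.13 in untreated replicate 3.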

How the results depend on the processing

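Of the values of named genes under alternatives other than leaving out 1 mouse, 519 kept their direction and side of the threshold, 14 passed it anew, 22 lost it and 1 reversed. The reversal was Col22a1 in FA against 24-week smoke, at -0.0226 without the lymphocyte arrays. Of the counts of collagen genes called, 181 stayed within 1.5 times and 26 moved, as follows, and the causes were not tested. Array weights gave 1 gene for smoke against air at 24 weeks and for the change of that difference since 2 weeks (Col1a1 both times), 3 for RA against 24-week air, 4 for RA against 24-week smoke, 2 for 2-week air against untreated, 1 for air at 12 against 2 weeks, 4 for air at 24 against 2 weeks, 2 for air at 24 against 12 weeks, 2 for smoke at 12 against 2 weeks and 2 for smoke at 24 against 2 weeks. Without lymphocyte arrays the counts were 1 for RA against 24-week air, 1 for 2-week air against untreated, 4 for air at 24 against 2 weeks and 0 for smoke at 24 against 2 weeks. Fits of the compared groups alone gave 1, 1, 0 and 0 for those comparisons, 0 for RA against 24-week smoke and 0 for air at 24 against 12 weeks. A filter at the 60th percentile gave 1 for smoke against air at 24 weeks and 1 for smoke at 24 against 2 weeks. No filter gave 1 for RA against 24-week smoke, and the mean of probe sets gave 1 there and 2 for air at 24 weeks against 2 and against 12 weeks (Col1a1 and Col1a2).

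Leaving out 1 mouse gave 0 to 3 collagen genes for smoke against air at 24 weeks, 0 to 4 for RA against 24-week air, 0 to 2 for FA against 24-week smoke, 0 to 3 for RA against 24-week smoke, 1 to 2 for air at 24 weeks against 2 or 12 weeks and 2 to 6 for smoke at 24 against 2 weeks. It gave 0 in the other 10 comparisons. No paired analysis was possible because the replicate numbers follow accession order and the groups are different mice. How far signal over background limits dim probe sets is not known, as detection calls were not used here.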
